A study of Mus musculus with 5 samples.

Results

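Bidirectional promoters are stretches of DNA from which 2 genes on opposite strands are transcribed away from each other. They are common in mammalian genomes, where many of them join housekeeping genes for DNA repair, chaperones or metabolism, or join a protein-coding gene with a divergent long non-coding RNA (lncRNA). Most lie in CpG islands, lack a TATA box and share a single nucleosome-depleted stretch between the start sites. Open chromatin at such a stretch cannot be assigned to one gene or the other from accessibility alone.

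Accessibility was measured with ATAC-seq, in which a transposase cuts and tags DNA that nucleosomes leave open. The cells were C17.2, an established mouse neural stem cell line of CD1 x C57BL/6 background, and 50000 nuclei entered each library. The 0 h library was the untreated control in DMEM/F12 with fetal bovine serum, and the other 4 libraries followed 0.5, 1, 1.5 and 2 h after neural induction in Knockout DMEM with GlutaMAX and N2 supplement. There was 1 library per time, from 1 cell line, so every difference between times below is a difference between single libraries and has no replicate check and no test.

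Members were all sites of the deposited table that lay at most 500 bp, midpoint to midpoint, from a site named after a different gene on the opposite strand. Sites named Galnt2l, 394 in number, were left out. The rule took 2245 of 34714 sites. These formed 3557 pairs of sites, 351 pairs of genes and 350 separate regions, and involved 701 of 8034 named genes. The gene Entr1 stood in 2 pairs, Entr1/Pmpca and Entr1/Gm13563. No measured value entered the choice. Each gene pair is written with the minus-strand gene first and is described by its closest pair of sites, a median of 112 bp apart, with a range of 10 to 498.5 bp. Values are whole numbers under the name of each library's BED file. They are read here, by inference, as the number of BED entries over a site. On this reading a value is neither a read count nor a normalised signal. A site with 1 or more entries is called covered. A list of 5 values is always in the order 0, 0.5, 1, 1.5 and 2 h.

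The name of the group was checked against gene positions. In 348 of 351 pairs the minus-strand gene's site lay to the left of the plus-strand gene's site, the order of divergent genes. RefSeq, in assembly GRCm38.p6, held 599 of the 701 genes by symbol and both genes of 250 pairs. In 123 of the 250 pairs the annotated 5′ ends were 1 to 1000 bp apart, and in 71 they overlapped by up to 1000 bp, which made 194 pairs head-to-head. In another 38 pairs the 5′ ends overlapped by more than 1000 bp and in 18 they were more than 1000 bp apart. These 56 pairs are therefore called opposite-strand pairs and not promoters. Overlap here means that the plus-strand gene's 5′ end lay at or left of the minus-strand gene's 5′ end. The 3′ ends were not compared. The median gap between 5′ ends was 18 bp. Both genes were protein-coding in 120 pairs, 130 pairs joined a protein-coding gene with another kind of gene, mostly an lncRNA, and 101 pairs had a gene with no RefSeq match. Of the member sites, 1794 overlapped their gene and 449 lay before it, and 44.7% carried the strand of their gene. A site therefore shows where a gene may begin and not which strand is read.

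The promoters of 10 pairs are printed to show the DNA that both genes share and the pairs the results turn on. They are RefSeq promoter windows of 300 bases on GRCm38.p6, 250 before and 50 after the annotated start of the gene named, read 5′ to 3′ on that gene's strand, and each holds the closest sites of both genes. Capitals mark matches on either strand to the cores of ETS factors (CCGGAAG), NRF1 (TGCGCA), YY1 (ATGGCGG), SP1 (GGGCGG), the CCAAT box (CCAAT) and the TATA box (TATAAA), and adjoining capitals can hold matches that overlap. Only these exact letters were searched, so an unmarked stretch can still hold a variant of a motif, and shares of windows with a core leave such variants out. The first pair went from 0 entries at 0 h to 4 or 5 in all later libraries. Its Atp5j window, at chr16:84835576-84835875 on the minus strand, held SP1 cores only.
Atp5j/Gabpa: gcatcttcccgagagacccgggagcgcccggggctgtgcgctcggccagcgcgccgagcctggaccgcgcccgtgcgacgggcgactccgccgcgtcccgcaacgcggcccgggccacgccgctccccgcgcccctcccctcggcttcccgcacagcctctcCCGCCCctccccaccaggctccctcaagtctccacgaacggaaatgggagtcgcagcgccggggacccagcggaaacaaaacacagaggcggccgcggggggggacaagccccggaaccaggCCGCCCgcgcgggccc
Thap4 and Atg4b were likewise without entries at 0 h and covered at every later time. The Atg4b window at chr1:93754655-93754954, on the plus strand, held 55 CpG.
Thap4/Atg4b: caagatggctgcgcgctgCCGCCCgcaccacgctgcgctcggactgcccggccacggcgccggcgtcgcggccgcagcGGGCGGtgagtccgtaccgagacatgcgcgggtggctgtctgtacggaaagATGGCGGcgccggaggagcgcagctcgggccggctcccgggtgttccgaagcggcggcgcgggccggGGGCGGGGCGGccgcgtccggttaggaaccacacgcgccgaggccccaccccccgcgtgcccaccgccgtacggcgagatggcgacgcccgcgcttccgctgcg
Gnl3 and Pbrm1 held 5 entries at 0 h and 1 or 2 later. At chr14:31019082-31019381, on the minus strand, the Gnl3 window held 10 SP1 cores.
Gnl3/Pbrm1: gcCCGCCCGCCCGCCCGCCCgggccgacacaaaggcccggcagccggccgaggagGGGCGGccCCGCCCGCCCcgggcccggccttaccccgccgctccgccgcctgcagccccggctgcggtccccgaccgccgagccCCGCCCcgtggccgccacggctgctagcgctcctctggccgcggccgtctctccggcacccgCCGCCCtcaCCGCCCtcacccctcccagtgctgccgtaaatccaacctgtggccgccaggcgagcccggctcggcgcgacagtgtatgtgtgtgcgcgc
The chaperonin pair Hspd1 and Hspe1 is a textbook case of a divergent promoter. Its Hspd1 window, at chr1:55088194-55088493 on the minus strand, held SP1 cores and a CCAAT box.
Hspd1/Hspe1: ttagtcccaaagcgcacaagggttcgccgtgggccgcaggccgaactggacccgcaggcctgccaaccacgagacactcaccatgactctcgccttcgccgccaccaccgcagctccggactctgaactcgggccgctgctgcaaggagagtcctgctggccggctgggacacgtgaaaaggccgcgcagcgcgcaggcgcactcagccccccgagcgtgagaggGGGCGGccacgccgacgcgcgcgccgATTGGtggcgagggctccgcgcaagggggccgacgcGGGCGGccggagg
Lsm7 and Sppl2b were high at 0.5 h. Their Sppl2b window, at chr10:80855025-80855324 on the plus strand, held a YY1 core, 2 NRF1 cores and SP1 cores.
Lsm7/Sppl2b: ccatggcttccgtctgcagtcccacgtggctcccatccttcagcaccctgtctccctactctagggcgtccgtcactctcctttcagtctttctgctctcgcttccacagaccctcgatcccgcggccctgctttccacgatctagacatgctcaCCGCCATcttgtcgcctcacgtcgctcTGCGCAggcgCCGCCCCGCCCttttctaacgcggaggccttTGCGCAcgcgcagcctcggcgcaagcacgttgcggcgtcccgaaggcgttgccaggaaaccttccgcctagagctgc
Recql and Golt1b were covered in all 5 libraries and changed little. In the Golt1b window, at chr6:142386993-142387292 on the plus strand, 4 CCAAT boxes, 2 ETS cores and SP1 cores were found.
Recql/Golt1b: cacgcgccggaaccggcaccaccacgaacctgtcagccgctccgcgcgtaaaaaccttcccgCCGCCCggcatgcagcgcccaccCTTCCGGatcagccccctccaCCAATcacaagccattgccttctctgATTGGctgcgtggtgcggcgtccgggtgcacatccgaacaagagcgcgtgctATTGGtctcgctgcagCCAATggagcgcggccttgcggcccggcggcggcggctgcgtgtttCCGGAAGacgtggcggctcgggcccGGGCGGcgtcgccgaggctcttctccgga
Efcab11 and Tdp1 were low at 2 h. The Tdp1 window at chr12:99884268-99884567, on the plus strand, held a palindrome that reads as an ETS core on both strands, and an SP1 core.
Efcab11/Tdp1: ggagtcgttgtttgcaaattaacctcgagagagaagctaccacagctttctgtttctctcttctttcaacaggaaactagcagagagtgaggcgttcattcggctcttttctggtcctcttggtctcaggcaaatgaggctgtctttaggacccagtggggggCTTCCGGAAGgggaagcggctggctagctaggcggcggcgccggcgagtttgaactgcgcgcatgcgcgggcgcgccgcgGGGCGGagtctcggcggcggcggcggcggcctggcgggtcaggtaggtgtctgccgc
Baz2b and Marchf7 differed from each other at 1 h. At chr2:60209686-60209985, on the plus strand, the Marchf7 window held 4 SP1 cores and a YY1 core.
Baz2b/Marchf7: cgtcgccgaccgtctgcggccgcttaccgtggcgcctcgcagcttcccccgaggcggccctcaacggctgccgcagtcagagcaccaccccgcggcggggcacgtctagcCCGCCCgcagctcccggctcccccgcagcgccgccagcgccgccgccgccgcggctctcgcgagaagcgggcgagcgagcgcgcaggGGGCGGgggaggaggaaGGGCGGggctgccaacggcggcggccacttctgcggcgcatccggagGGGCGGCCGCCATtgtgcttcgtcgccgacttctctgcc
Rfng and Gps1 differed from each other in 3 libraries. The Rfng window, at chr11:120784155-120784454 on the minus strand, held an ETS core that overlaps an SP1 core.
Rfng/Gps1: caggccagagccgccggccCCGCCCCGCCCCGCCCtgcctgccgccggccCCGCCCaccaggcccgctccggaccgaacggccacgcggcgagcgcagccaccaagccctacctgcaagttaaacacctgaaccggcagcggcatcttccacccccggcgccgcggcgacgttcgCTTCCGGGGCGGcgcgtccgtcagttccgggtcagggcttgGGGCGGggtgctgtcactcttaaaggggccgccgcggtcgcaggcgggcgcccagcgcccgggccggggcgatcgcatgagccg
Lhx1 and Lhx1os were without entries throughout. Their Lhx1 window, at chr11:84525485-84525784 on the minus strand, held a CCAAT box as its only match.
Lhx1/Lhx1os: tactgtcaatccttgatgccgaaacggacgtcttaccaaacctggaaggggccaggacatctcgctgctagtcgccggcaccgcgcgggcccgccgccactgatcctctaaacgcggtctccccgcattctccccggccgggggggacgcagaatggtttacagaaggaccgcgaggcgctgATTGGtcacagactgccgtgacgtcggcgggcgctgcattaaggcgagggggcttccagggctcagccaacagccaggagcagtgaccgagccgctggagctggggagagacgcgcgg

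The libraries differed in how much of the table they covered. Between 47.6% of all sites at 0 h and 66.9% at 1.5 h were covered, and the entries summed to between 42527 at 0 h and 65824 at 1.5 h. The read depth behind the entries is unknown, and its part in the differences below was not tested. Of 12 neural progenitor genes looked up, 6 had a site. Cdh2 (N-cadherin) and the Notch effector Hes1, with 1 entry, were covered in all 5 libraries, Notch1 and Nes in some of the later ones, and Pax6 and Msi1 in none. Of 14 markers of other cells, 4 had a site and 1 was covered, the microglial gene Cx3cr1, with 2 entries in every library. Msi1, an RNA-binding protein of neural progenitors, belongs to the pair Gm43231/Msi1, which was at 0 in all 5 libraries.

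Both genes of most pairs were covered together. At 0 h both genes were covered in 229 of 351 pairs (65.2%), 1 gene alone in 42 and neither in 80. At 1.5 h both were covered in 286 (81.5%), 1 gene alone in 17 and neither in 48, and the 2 h library was close to this, with 284 pairs (80.9%) covered in both genes. The libraries between them held 258 (73.5%) at 0.5 h and 246 (70.1%) at 1 h. Over the 5 libraries, 220 pairs (62.7%) were covered in both genes every time and 38 (10.8%) in neither gene at any time.

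**Figure D1:**
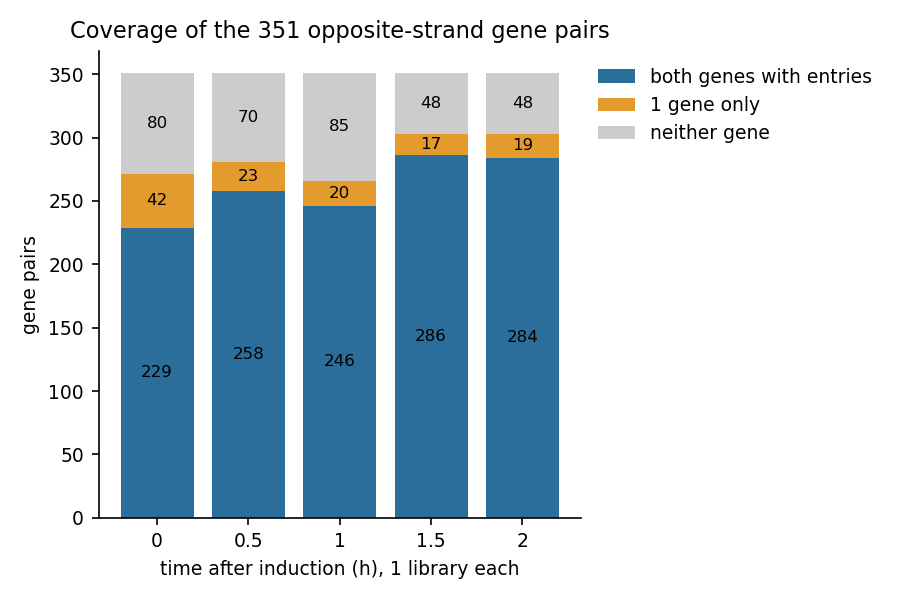
Number of gene pairs (y axis) with entries at both genes, at 1 gene only or at neither, in each of the 5 libraries by hours after induction (x axis). Pairs with entries at 1 gene only numbered 42 at 0 h and between 17 and 23 in the 4 later libraries.

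When both genes were covered they nearly always held the same number of entries. Among 1755 combinations of a pair and a library, both genes were covered in 1303, and in 5 of those 1303 the numbers differed. A difference between the genes was therefore nearly always entries at 1 gene against 0 at the other, which occurred in 121 combinations. The share of pairs with equal values was 87.7% at 0 h (Wilson 95% interval 83.9 to 90.8%, for counting error over pairs only), then 93.2%, 94.0%, 94.6% and 94.6% in the later libraries. Values were equal in all 5 libraries in 283 of 351 pairs (80.6%), of which 245 were covered at least in 1 library. Taken over all 3557 pairs of sites in place of the closest, the share equal in all 5 libraries was 44.9%.

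Over all site pairs, the share with equal values was lower at longer distances, both between opposite-strand genes and within 1 gene. Site pairs of opposite-strand genes that were covered in at least 1 library were equal in all 5 in 81.0% of cases at up to 50 bp, 71.0% at 50 to 100 bp, 51.6% at 100 to 200 bp and 19.3% at 400 to 500 bp. Site pairs within 1 gene gave 81.8%, 62.4%, 39.7% and 15.2% over the same distances. The 2 curves ran together up to 50 bp, and beyond it the opposite-strand pairs were higher in each of the 5 bins. With site pairs that were never covered counted as equal, this order held from 50 to 200 bp (75.2% against 74.2%, then 58.1% against 57.9%) and turned in the 3 bins beyond 200 bp, where opposite-strand genes gave 40.9%, 31.3% and 25.7% and sites within 1 gene 44.8%, 39.9% and 35.7%. The closest sites of each gene pair gave no steady decline: among covered pairs 85.7%, 85.5%, 75.9%, 53.1%, 76.9% and 76.9% were equal in all 5 libraries from the shortest to the longest distances. Sites that neighbour each other share libraries, intervals and regions, so these shares are descriptions. Regions showed the same block-like coverage: at 0 h, 94.5% of the covered member regions held a single value above 0 across all their covered sites, against 93.2% of other regions of 2 or more sites.

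**Figure D2:**
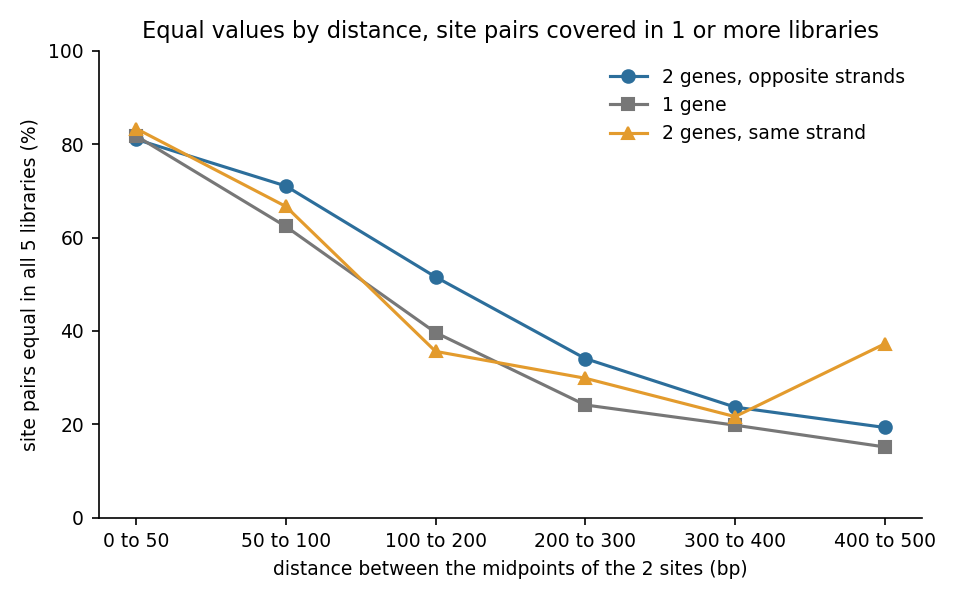
Percent of site pairs with equal values in all 5 libraries (y axis) by the distance between midpoints in bp (x axis), for site pairs covered in at least 1 library, with opposite-strand genes as circles, sites of 1 gene as squares and same-strand genes as triangles. The opposite-strand curve falls from 81.0% to 19.3%, and the same-strand bins hold 12 to 87 pairs each.

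The distance limit of 500 bp cut through pairs of like behaviour. Just inside it, Gm48226/Gphn at 497.5 bp held 2, 6, 3, 5, 3 in both genes, Gm15918/Xkr6 at 498 bp held 0 throughout, and Zfp654/Cggbp1 at 498.5 bp held 3, 4, 1, 4, 4 in both. Just outside it, Psma7/Ss18l1 at 509 bp held 5, 5, 4, 4, 5 in both genes and Gm34730/Mfap3l at 521 bp held 4, 3, 3, 3, 4 in both. Adra1d/Gm14285 at 516.5 bp was unequal at 0, 0.5 and 1 h, where Adra1d held 0 and its partner 2 or 3.

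Regions with an opposite-strand pair were covered more often than other regions, whereas single sites within 100 bp of a 5′ end were covered about as often in both groups. The covered shares of the 350 member regions, in time order, were 83.7%, 85.7%, 82.6%, 90.0% and 88.6%. Those of the 5170 other regions were 69.9%, 74.0%, 69.7%, 77.3% and 76.4%. Member regions held a median of 5 sites and other regions a median of 4. Within 100 bp of their gene's RefSeq 5′ end, 67.4% of 656 member sites and 67.0% of 6060 other sites were covered at 0 h, and 82.6% and 79.8% at 1.5 h. Farther out, member sites were covered less often in some bins and more often in others. At 100 to 250 bp before their own 5′ end, 40.4% of 99 member sites and 61.0% of 1219 other sites were covered at 0 h, and 67.7% and 75.7% at 1.5 h. At 100 to 250 bp after it, the shares were 46.7% of 392 and 52.4% of 4276 at 0 h, and 74.2% and 73.6% at 1.5 h. At 750 to 1000 bp after it, they were 47.8% of 90 and 34.7% of 1344 at 0 h, and 72.2% and 56.4% at 1.5 h.

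**Figure D3:**
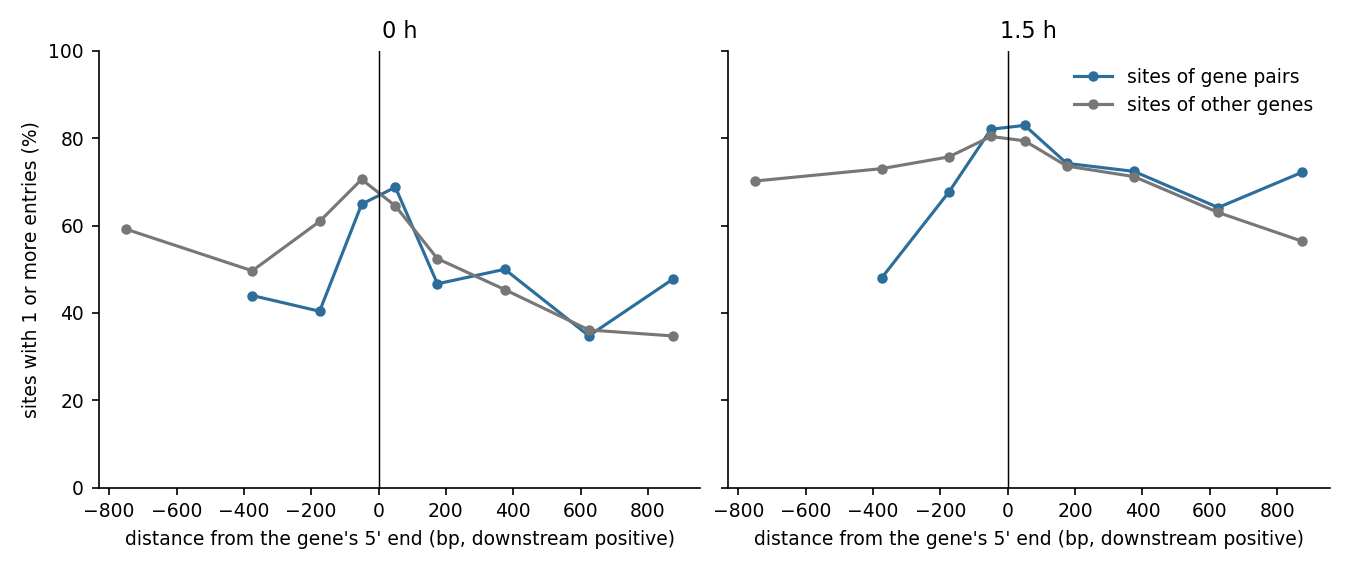
Percent of sites with 1 or more entries (y axis) by distance from the RefSeq 5′ end of their gene in bp, downstream positive (x axis), at 0 h (left) and 1.5 h (right), for bins of at least 20 sites. Sites of gene pairs (blue) and of other genes (grey) run close together near the 5′ end, and the blue points lie lower in the bins upstream of -100 bp.

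Pairs of 2 protein-coding genes were covered most. Both genes were covered in all 5 libraries in 78.3% of the 120 coding pairs, in 55.4% of the 130 pairs of a coding gene with another gene, and in 53.5% of the 101 pairs with an unmatched gene. Only 3 coding pairs were without entries throughout, against 25 of the pairs with a non-coding partner. The 38 pairs never covered included developmental transcription factors with divergent transcripts, such as Lhx1/Lhx1os (a LIM homeodomain factor), Lmx1b/C130021I20Rik (another LIM homeodomain factor) and Gm27239 with Sall3 (a zinc finger factor), and the signalling ligand Wnt7a with Gm30437. They also included Actg1, which encodes cytoplasmic gamma-actin, a gene of nearly all cells, with 0610009L18Rik. A value of 0 therefore shows that no entry lay on these sites and not that the gene was inactive.

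The promoter windows of the genes in pairs differed in base composition and motifs from those of other genes. Windows were found for 437 starts of paired genes, with a median GC content of 71.0% and 37 CpG, against 66.3% and 27 CpG in 4877 windows of other genes in the table and 52.7% and 7 CpG in all 32851 RefSeq windows. An ETS core stood in 19.7% of the windows of paired genes, 15.2% of those of other genes in the table and 8.86% of all windows. For the NRF1 core these shares were 18.1%, 14.7% and 7.76%, and for the YY1 core 12.8%, 8.71% and 4.05%. The SP1 core was found in 83.5%, 78.8% and 35.7%, the CCAAT box in 30.9%, 33.6% and 37.4%, and the TATA box in 5.95%, 6.44% and 13.6%.

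Among the pairs themselves, an ETS core was found in 24.9% of the 297 windows of pairs covered in both genes in all 5 libraries. It was found in 10.2% of the 98 windows of pairs covered part of the time and in 4.76% of the 42 windows of pairs never covered, where 2 windows held it. The NRF1 core followed the same order, with 20.9%, 14.3% and 7.14%, as did the SP1 core, with 85.9%, 79.6% and 76.2%. The YY1 core (12.5%, 16.3% and 7.14%), the CCAAT box (33.3%, 22.4% and 33.3%) and the TATA box (6.73%, 3.06% and 7.14%) did not. Median CpG counts were 36, 41.5 and 38.5 per window. Of the printed windows, an ETS core lay in those of Recql/Golt1b and Efcab11/Tdp1, covered throughout, and of Rfng/Gps1, covered part of the time. It was absent from the others, among them Gnl3/Pbrm1, Hspd1/Hspe1 and Lsm7/Sppl2b, also covered throughout. A match is a description of the letters and not of a bound factor, and no test was run on these shares.

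Most changes between consecutive libraries were shared by both genes. From 0 to 0.5 h, 174 pairs changed in at least 1 gene, and 132 of them (75.9%) changed by the same number of entries in both. The same held for 138 of 166 pairs (83.1%) from 0.5 to 1 h, 172 of 201 (85.6%) from 1 to 1.5 h and 153 of 175 (87.4%) from 1.5 to 2 h. The closest sites of other regions gave 87.5%, 89.3%, 90.4% and 93.7%. Of these, 3535 of 5170 were at most 50 bp apart, as were 82 of the 351 gene pairs. With both limited to sites over 50 bp apart, gene pairs gave 74.5%, 80.6%, 83.4% and 85.6% and other regions 76.4%, 81.1%, 81.8% and 88.5%. Changes in opposite directions occurred in 3, 3, 5 and 3 pairs over the 4 steps, and changes of 1 gene alone in 28, 20, 16 and 12.

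Of the 42 pairs with 1 covered gene at 0 h, 34 were covered in both genes at 1.5 h, and 15 were covered in both in all later libraries. Arl5a/A430018G15Rik, which joins a gene of a small GTPase of the Golgi with an lncRNA, was one of these: Arl5a held 0, 3, 1, 2, 2 and A430018G15Rik held 1, 3, 1, 2, 2. The reverse, both genes covered at 0 h and 1 gene alone in a later library, was seen in 5 pairs. Other regions were not counted in this way. The 0 h library had the lowest share of covered sites in the table, and its part in this was not tested. The 1 h library had the next lowest share, 51.2%, and held 20 pairs with 1 covered gene.

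In the 130 pairs of a coding gene with another gene of RefSeq, the entries that lay on 1 gene alone were nearly always on the non-coding side. At 0 h, 13 of the 130 pairs were covered at the other gene alone and 0 at the coding gene alone. In the 4 later libraries the other gene alone was covered in 6, 6, 5 and 7 pairs, and the coding gene alone in 0, 0, 0 and 1. Over all libraries 21 pairs were ever covered at 1 gene alone, and in 20 of them that gene was not the coding one. The exception was Siah1a/Gm10638 at 2 h. In these 20 pairs the coding gene's site lay a median of 143.75 bp downstream of its own 5′ end, downstream in 18 of 20, whereas in the 109 pairs never covered at 1 gene alone it lay a median of 48 bp downstream. The part of this position in the result was not tested. The 101 pairs with an unmatched gene are not in these counts, and in them the order was less one-sided. There the coding gene alone was covered in the pairs of Suds3, Ephx4, Srsf1, Riox1, N4bp2 and Notum. The other gene alone was covered in a larger number, such as Brwd1/1700093J21Rik and Gm2415/Ctdspl.

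Some pairs went far apart, and those with the largest summed difference between their genes are described here. Xpo7, a nuclear export receptor, held 0 in all 5 libraries and Dok2, an adaptor of tyrosine kinase signalling, held 4, 3, 3, 3, 4, at chr14:70766445-70766825, with sites 375.5 bp apart. Mmgt2, a magnesium transporter gene, held 2, 2, 2, 3, 3 and its partner Lrrc75a 0 throughout. Snx25, a sorting nexin, held 2, 3, 1, 2, 2 and Cfap97 0 throughout. These 3 were the only pairs of the 351 with 1 gene covered every time and the other never. RefSeq put the 5′ ends of Snx25 and Cfap97 9654 bp apart. It placed the Xpo7 site 4417 bp and the Dok2 site 933.5 bp downstream of the 5′ ends of their genes, so neither pair is a divergent promoter by annotation.

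Kmt2a, the histone H3 lysine methyltransferase MLL1, held 0, 0, 3, 3, 0 while its partner Gm39326 held 3, 4, 3, 3, 4. Here the sites are 285.5 bp apart, and RefSeq gave a gap of -26433 bp between the 5′ ends, which overlap. Stxbp5, a regulator of vesicle fusion, held 0, 0, 0, 2, 4 and Gm46210 held 3, 3, 4, 3, 4.

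In several of these pairs the lower gene joined the higher one late. Foxm1, a transcription factor of mitotic genes, held 0, 0, 0, 3, 3 while Rhno1, a DNA damage checkpoint protein, held 1, 4, 2, 3, 3. Ctdspl, a phosphatase, held 0, 0, 0, 2, 3 against 2, 2, 3, 2, 3 at Gm2415, and Pip5k1b, a phosphoinositide kinase, held 0, 0, 0, 1, 3 against 3, 2, 2, 2, 3 at Gm50341. Ptbp1, a splicing repressor that holds back neuronal exons, went another way: it held 0, 5, 0, 1, 0 and E130317F20Rik 4, 5, 0, 1, 4, so that both genes were equal at 0.5, 1 and 1.5 h and unequal at 0 and 2 h.

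**Figure D4:**
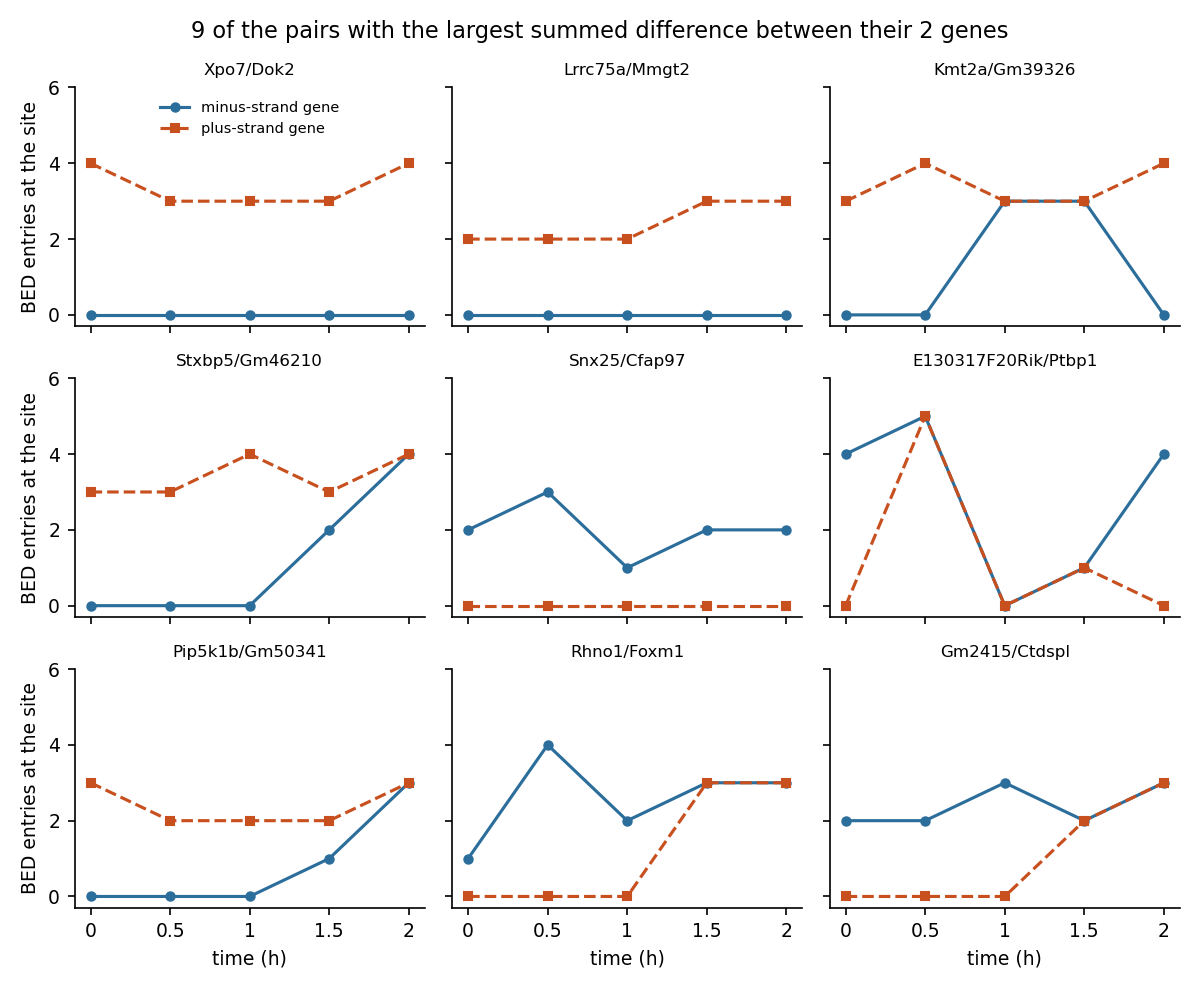
Entries at the site of each gene (y axis) against hours after induction (x axis) for 9 of the 10 pairs with the largest summed difference, with the minus-strand gene as blue circles and the plus-strand gene as red squares. In 3 panels (Xpo7/Dok2, Lrrc75a/Mmgt2 and Snx25/Cfap97) 1 gene stays at 0 while the other is covered in all 5 libraries.

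Splits also occurred within a short promoter. The sites of Baz2b, a bromodomain protein, and Marchf7, a ubiquitin ligase, are 82.5 bp apart in the promoter printed above. Both held 0, 4 at the first times and 3, 3 at the last, and at 1 h Baz2b held 0 and Marchf7 held 4. The sites of Rfng, a glycosyltransferase of Notch receptors, and Gps1, a subunit of the COP9 signalosome, are 105.5 bp apart. Rfng held 1, 1, 0, 3, 2 and Gps1 held 0, 0, 0, 3, 0.

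Changes against 0 h were counted on the mean of both genes, as a ratio of at least 2-fold on the log2(value + 1) scale, which understates the change of low values. At 0.5 h, 36 pairs (10.3%) were higher by this measure and 8 (2.28%) lower, beside 13.6% and 1.68% of the 5170 other regions. Each other region was counted by its closest 2 sites. At 1 h, 20 pairs (5.70%) were higher and 20 lower, beside 7.74% and 4.29%. At 1.5 h, 64 (18.2%) were higher and 8 (2.28%) lower, beside 20.6% and 1.41%. At 2 h, 60 (17.1%) were higher and 21 (5.98%) lower, beside 18.4% and 2.5%. The shares of higher pairs were somewhat below the background at each time, and the shares of lower pairs above it, with the widest gap at 2 h. The counts of lower pairs are small and depended on the setting: with all member sites of a pair averaged they were 5, 13 and 5 at 0.5, 1 and 1.5 h, and among pairs with a mean of at least 1 they were 4 at 0.5 h and 5 at 1.5 h.

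**Figure D5:**
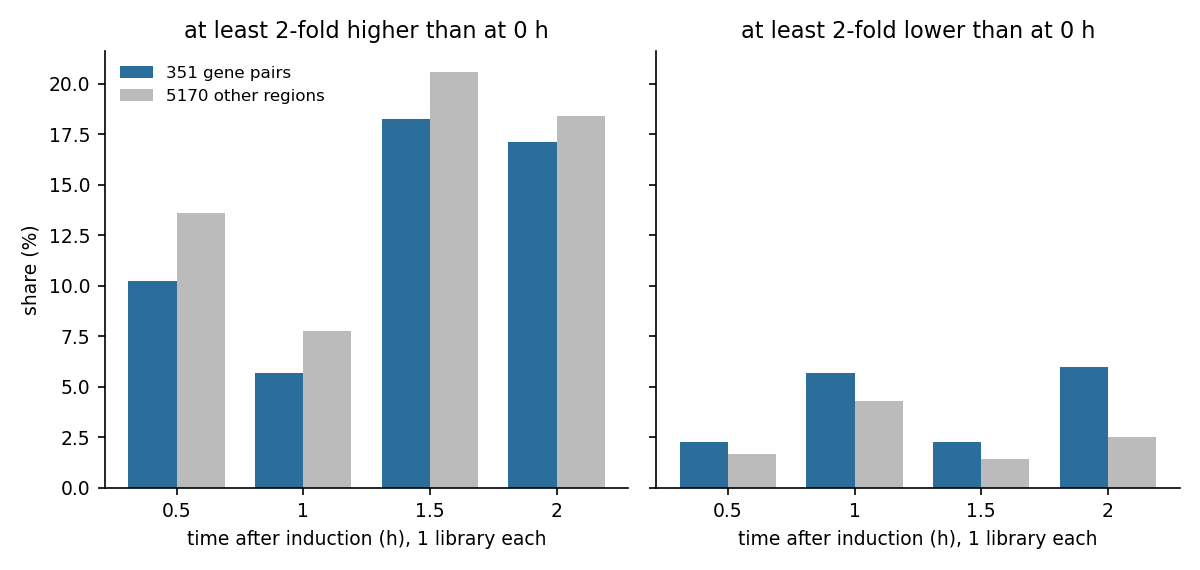
Percent of the 351 gene pairs (blue bars) and of 5170 other regions (grey bars) that were at least 2-fold higher (left) or lower (right) than at 0 h on the log2(value + 1) scale (y axis), by hours after induction (x axis). The 4 comparisons share the 0 h library, and the blue bar is below the grey one for higher pairs and above it for lower pairs at each time.

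The 2 groups did not start from the same level. At 0 h, 80 gene pairs (22.8%) were at 0 in both genes, beside 2224 other regions (43.0%) at 0 in their closest 2 sites. In all 5 libraries, 38 pairs (10.8%) and 1354 other regions (26.2%) were at 0 in the same way. By this measure a smaller share of pairs could gain entries and a larger share could lose them. Gains and losses of other regions are likewise those of their closest 2 sites. Counted over all their sites, 69.9% of other regions were covered at 0 h. Gained pairs, from 0 to at least 1 entry, numbered 17, 11, 35 and 35 over the 4 later times, or 4.84%, 3.13%, 9.97% and 9.97% of all pairs, beside 9.46%, 5.57%, 15.3% and 14.5% of other regions. Read over the uncovered alone, 43.8% of the 80 pairs were gained at 1.5 h and the same share at 2 h, beside 35.5% and 33.8% of the 2224 other regions. At 0.5 h these shares were 21.2% and 22.0%, and at 1 h 13.8% and 12.9%. Lost pairs numbered 7, 16, 3 and 3 over the 4 times, or 1.99%, 4.56%, 0.855% and 0.855% of all pairs, beside 0.87%, 2.94%, 0.271% and 0.619% of other regions. Read over those covered at 0 h alone, the lost shares were 2.58%, 5.90%, 1.11% and 1.11% of 271 pairs, beside 1.53%, 5.16%, 0.475% and 1.09% of 2946 other regions.

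Atp5j and Gabpa had the largest gain that held at every later time. Atp5j encodes coupling factor 6 of the mitochondrial ATP synthase, and Gabpa the ETS-family subunit of GABP, a factor known for activating nuclear genes of the respiratory chain. Both sites, 148.5 bp apart, held 0, 5, 4, 5, 5. The log2 ratio to 0 h was 2.58 at 0.5, 1.5 and 2 h and 2.32 at 1 h. No other pair that was at 0 in the 0 h library reached 4 entries in all later libraries in both genes.

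The same pattern, neither gene at 0 h and both at every later time, was seen in 4 pairs in all. Patterns over the 5 libraries, here and below, were counted in gene pairs only and not in other regions. They can therefore not be called particular to these pairs. Thap4 and Atg4b, the second a protease that processes LC3 in autophagy, held 0, 3, 2, 3, 4. Parp12, an ADP-ribosyltransferase, and 4930599N23Rik held 0, 3, 2, 3, 2. Galnt16, an enzyme of mucin-type glycosylation, and Gm26777 held 0, 1, 1, 2, 1.

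Other pairs gained entries in part of the later libraries. Mettl9, a histidine methyltransferase, held 0, 6, 0, 4, 4 and its partner Gm9905 held 0, 6, 2, 4, 4, with a log2 ratio of 2.81 at 0.5 h. Siah1a, a ubiquitin ligase, held 0, 0, 0, 6, 2 and Gm10638 held 0, 0, 0, 6, 0. Dpy19l1, a mannosyltransferase, held 0, 0, 0, 5, 5 and Gm47772 held 0, 4, 0, 5, 5. Sobp held 0, 4, 0, 0, 0 and 9030612E09Rik 0, 4, 0, 1, 1.

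In another 6 pairs both genes were covered at 1.5 and 2 h only. Among them, AL845275.1/Usp6nl, with a regulator of Rab GTPases, held 0, 0, 0, 5, 4 in both genes, and Tapt1/Gm42984 held 0, 0, 0, 4, 5 in both, with a log2 ratio of 2.58 at 2 h. Bend6, a corepressor of Notch signalling, and Dst, the cytoskeletal linker dystonin, held 0, 0, 0, 2, 2. The pair Entr1/Gm13563 also held 0, 0, 0, 3, 4, whereas Entr1/Pmpca, at other sites of the same gene, held 2, 2, 1, 3, 4. E2f8, an atypical E2F repressor of the cell cycle, was covered at 0.5 h as well, and held 0, 3, 0, 3, 3 together with Gm2788.

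A further 12 pairs had entries in a single library, 6 at 2 h, 5 at 1.5 h and 1 at 1 h, and 3 of them are given here. Tcf7, a transcription factor of Wnt signalling, and A630014C17Rik held 0, 0, 0, 0, 4. Cebpa, a transcription factor of differentiation, and Gm45091 held 0, 0, 0, 3, 0. Penk, the precursor of enkephalin, and A830012C17Rik held 0, 0, 1, 0, 0. With 1 library per time, such a value rests on that library alone.

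Clmn and 4930408O17Rik were the only pair with entries in both genes at 0 h and in neither at any later time. Both sites, at chr12:104865071-104865096 and 21.5 bp apart, held 4, 0, 0, 0, 0, and the log2 ratio was -2.32 at each later time. Gnl3 and Pbrm1 held 5, 1, 1, 2, 2 in both genes. Gnl3 encodes nucleostemin, a nucleolar GTPase of stem and dividing cells, and Pbrm1 a subunit of the PBAF chromatin remodeller. The 0 h value of this pair was above all later ones, with a log2 ratio of -1.58 at 0.5 and 1 h.

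Further pairs were lower than at 0 h at some or all later times. Drap1, a subunit of the transcription repressor NC2, held 2, 0, 0, 2, 4 and AI837181 held 2, 0, 0, 0, 4. Rnpepl1 and 5033417F24Rik held 2, 0, 0, 0, 1, below 0 h throughout. Gak, a kinase of clathrin uncoating, and Tmem175, a lysosomal channel, held 3, 3, 2, 1, 3. Tmem267 and 3110070M22Rik held 5, 3, 5, 2, 2, lowest at 1.5 and 2 h.

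Beside Clmn/4930408O17Rik, the pairs with the lowest ratios at 2 h included 3 that held 4 entries at both 0 and 0.5 h. Efcab11 and Tdp1, which repairs topoisomerase lesions in DNA, held 4, 4, 4, 4, 1, with a log2 ratio of -1.32. Guf1, a mitochondrial translation factor, and 3110031N09Rik held 4, 4, 4, 2, 1. Srsf1, a splicing factor, held 4, 4, 2, 3, 1 and Gm11508 held 4, 4, 2, 3, 0, with a log2 ratio of -1.74. In these 3 pairs the 2 h value was the lowest of the 5. Entpd5/Bbof1, with 4, 3, 4, 2, 1 in both genes, and Gtf2ird1/Gm42882, with 4, 4, 1, 3, 1, tied at -1.32. They ranked after Efcab11/Tdp1 and 3110031N09Rik/Guf1 by their lower means only.

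The highest pairs were covered in both genes alike in every library. Sptbn1, a spectrin of the membrane skeleton, and Gm8098 held 7, 6, 6, 7, 5. Yap1, the coactivator controlled by Hippo signalling, and Gm45494 held 5, 6, 5, 4, 4, and Mex3b, an RNA-binding protein, and Gm36584 held 6, 4, 4, 5, 5. Ccdc92/Zfp664 held 3, 6, 6, 5, 6, Fhl4/Tmem263 held 3, 5, 5, 6, 7 and 4930539J05Rik/Ube2d3, with a ubiquitin-conjugating enzyme, held 3, 6, 5, 5, 6. Nudt6 and Spata5 held 5 in every library. They were 1 of 29 pairs with the same value above 0 in both genes and in all 5 libraries, as were Setd5 with Gt(ROSA)26Sor at 4, Sec62 with 4933429H19Rik at 4 and Hes7 with 9130213A22Rik at 2.

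By role, pairs were counted over 16 gene lists, which do not hold every gene of a role. The DNA repair list supplied 4 pairs. Recql, a RecQ helicase, and Golt1b held 2, 3, 3, 3, 3, as did Recql4, its relative, with Lrrc14. Polh, the polymerase that copies past ultraviolet damage, and Xpo5, which exports microRNA precursors, held 3, 2, 2, 3, 3. Rev3l, the catalytic subunit of another translesion polymerase, held 0, 4, 4, 6, 6 and E130307A14Rik 2, 4, 4, 6, 6. Of these 4 pairs, 3 were higher at 2 h than at 0 h and 1 of them by at least 2-fold, beside 36.5% and 17.1% of all 351 pairs. Tdp1, Sprtn and the checkpoint gene Rhno1 are not on the list. Efcab11/Tdp1 and Exoc8/Sprtn were lower at 2 h than at 0 h, and Rhno1/Foxm1 was higher.

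The cell cycle list supplied 3 pairs, equal in both genes throughout. Dbf4, the activator of the Cdc7 kinase, and Slc25a40 held 3, 4, 2, 3, 1. Plk1, a mitotic kinase, with Gm15489 held 3, 3, 2, 2, 3, and Orc6, of the origin recognition complex, with Vps35, of the retromer, held 4, 4, 3, 4, 3. All 3 pairs were lower at 1 h than at 0 h, none by 2-fold, beside 94 of 351 pairs with any lower value at that time. Foxm1 and E2f8, given above, are not on this list. Both held 0 at 0 and 1 h, and Rhno1/Foxm1 was unequal in 3 libraries.

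The list of mitochondrial energy, import and chaperone genes also supplied 3 pairs, all equal in both genes. Other mitochondrial genes in pairs, such as Guf1, Ears2 and Atp5md, are not on it. Beside Atp5j/Gabpa, the chaperonins Hspd1 (Hsp60) and Hspe1 (Hsp10) held 4, 3, 3, 6, 3. Tfb2m, a factor that starts transcription of mitochondrial DNA, held 2, 3, 3, 3, 1 together with Cnst. The 22 mitochondrial ribosomal protein genes and the 26 immediate early genes of the table gave 0 pairs, and the 39 cytosolic ribosomal protein genes gave 1, Rpl34/Gm42997, with 2, 3, 3, 3, 2.

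Splicing and RNA processing gave 14 pairs, 12 of them equal throughout. Lsm7, of the ring that binds U6 RNA, and Sppl2b, an intramembrane protease, held 2, 6, 1, 2, 2, so that the 0.5 h library stood alone. Hnrnpdl and Enoph1 held 2, 6, 5, 5, 5, with 0 h below all later libraries, and Hnrnpd with Gm17092 held 1, 1, 1, 4, 1. At 1 h, 1 of the 14 was higher than at 0 h and 6 lower, and at 2 h 2 were higher and 7 lower, with a median log2 ratio at 2 h of -0.16 beside 0.0 over all pairs. Over all pairs 23.4% were higher and 26.8% lower at 1 h, and 36.5% and 23.4% at 2 h.

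Chromatin enzymes and their partners gave 11 pairs. Kdm7a, a histone demethylase, held 0, 1, 0, 7, 6 and Gm49041 held 2, 1, 0, 7, 6. Ing2 with AA386476 held 3, 4, 3, 6, 4. Cbx5, heterochromatin protein HP1 alpha, and Hnrnpa1, an RNA-binding protein, held 5, 5, 5, 5, 3. The histone list held 1 pair, H3f3a/H3f3aos: the gene of histone H3.3 held 0, 6, 3, 4, 4 and its antisense partner 1, 6, 2, 4, 4, and at 1 h it was among the few with both genes covered and unequal.

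Ubiquitin and proteasome genes gave 13 pairs, of which 8 were higher at 1.5 h than at 0 h and 2 lower. Cul4a, a cullin of ubiquitin ligases, with Pcid2 held 3, 5, 4, 5, 4, and Ube2j1 with 4933421O10Rik held 2, 2, 1, 4, 2. The 13 pairs with a numbered zinc finger gene, 8 of them equal throughout, had 9 higher at 1.5 h and 3 lower. Over all pairs 42.7% were higher at that time and 17.7% lower. Zfp592 with Gm44899 held 0, 2, 0, 3, 3, and Zfp280d with Gm27253 held 1, 2, 1, 4, 1. The median log2 ratio at 1.5 h was 0.42 in both lists, beside 0.0 over all pairs.

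Vesicle and nuclear transport genes gave 7 pairs, and 6 of them were lower at 1 h than at 0 h, with 0 higher, beside 26.8% lower and 23.4% higher over all pairs. At 1.5 h, 2 of the 7 were lower and 0 higher. The lower pairs at both times include Xpo7/Dok2, where the listed gene Xpo7 held 0 throughout and Dok2 fell from 4 to 3. Ofd1/Trappc2 also stands in the cilium list and Vps35/Orc6 in the cell cycle list. Their lower values at 1 h are therefore counted again there. Exoc8, of the exocyst, and Sprtn, a protease of DNA-protein crosslinks, held 6, 3, 3, 4, 5. The 4 pairs of cilium and centrosome genes were equal throughout, with 3 lower and 0 higher at both 1 and 2 h, beside 26.8% and 23.4% lower over all pairs. Ift140, of intraflagellar transport, with Cramp1l held 4, 5, 3, 4, 2, and Cep78 with C130060C02Rik held 4, 2, 4, 2, 2.

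The remaining lists were small. Ppat and Paics, which catalyse steps of purine synthesis, are a known divergent pair and held 2, 2, 3, 2, 2 in both genes. Of the translation genes, Eif1a held 3, 3, 3, 3, 4 and Tmed7 0, 3, 0, 3, 4, and Ears2, a mitochondrial glutamyl-tRNA synthetase, held 1, 3, 1, 1, 2 together with Ubfd1. Msi2, an RNA-binding protein of neural progenitors, held 3, 4, 2, 2, 3 together with C030037D09Rik. Counts of 1 to 14 pairs per list are descriptions of these libraries only.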

How the data were processed

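ATAC-seq libraries of C17.2 cells at 5 times, 1 per time, were used. Per the submitters' processing notes, Bowtie2, MACS2 and deepTools were used with build GRCm38 (mm10). Versions, settings, duplicate treatment and any transposase shift were not given in the sources used here. A deposited table gives sites 1 to 23 bp wide with, per library, a whole-number score from 0 to 10 under the name of a BED file per the file headers, read here, by inference, as the number of BED entries over the site. Depth is unknown.

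Pairs, distances and shares were computed in Python 3.11.15 with pandas 2.3.3, numpy 2.4.6 and scipy 1.17.1, on scripts tested on simulated data. Other regions are chains of at least 2 other named sites, each within 500 bp of the next and none of a member gene, described by their closest 2 sites. Ratios used a pseudocount of 1. No test between times was possible. Named pairs were the 4 highest and 4 lowest ratios per time, the 10 largest differences between genes, the 8 highest means, examples of 16 role lists, and pairs fixed by pattern; pairs given for other patterns were chosen after their values were seen. Members and lists were chosen with earlier results of these data known. Alternatives varied the distance, the site taken per gene, the cutoff, the pseudocount and a filter on low pairs. Some named pairs are not reported here.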

Additional observations from a re-analysis of the deposited data

How the results depend on the processing

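The share of gene pairs with equal values in all 5 libraries was 80.6% and stayed within its counting interval with the distance limit at 200 bp (84.2%) or 1000 bp (77.4%) and among covered pairs (78.3%). It was 44.9% over all site pairs, 73.5% with each gene's highest site and 85.1% among head-to-head pairs. Coverage of member regions with 2 or more entries required was 70.9%, 75.4%, 68.0%, 81.4% and 75.7%, and over single sites 55.2%, 65.2%, 58.4%, 75.6% and 74.6%, from 0 to 2 h. With any difference counted in place of 2-fold, 115 pairs were higher and 58 lower at 0.5 h, 82 and 94 at 1 h, 150 and 62 at 1.5 h, and 128 and 82 at 2 h, so that at 1 h more pairs were lower than higher. From 0 to 1 h, 60 of the 351 pairs rose and 74 fell by the same number in both genes. In 1 gene alone, 18 rose and 17 fell. For the closest 2 sites of the 5170 other regions these counts were 904 and 845, then 104 and 90. Pairs at least 2-fold lower numbered 4 at 0.5 h and 5 at 1.5 h among pairs with a mean of at least 1, and 5, 13 and 5 at 0.5, 1 and 1.5 h with all member sites averaged. With changes of at least 2 entries counted, the share changed alike in both genes was 62.8%, 68.8%, 77.1% and 73.2% over the 4 steps. A pseudocount of 0.5 moved none of the 8 counts of 2-fold changes beyond 1.5 times. The cause of these shifts was not tested, beyond the different sites or pairs each setting takes. No paired analysis was possible because each time has 1 library with no replicate number.

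Depth is unknown, small whole numbers step by whole entries, and a 0 can be a missed call. With 1 library per time, a difference between times cannot be told apart from a difference between libraries.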

Other observations

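Pcbp1, an RNA-binding protein that is widely expressed, and 1600020E01Rik were the only pair covered in every library except 1 h, where both were at 0. Pcbp1 held 1, 1, 0, 4, 3 and its partner 2, 3, 0, 4, 3, so the genes were unequal at 0 and 0.5 h although both were covered. Zfp512b and Prpf6, a splicing factor of the tri-snRNP, went apart in the middle of the series: Zfp512b held 2, 0, 0, 0, 1 and Prpf6 held 2, 1, 3, 3, 1, equal at 0 and 2 h. These pairs were chosen after their values were seen.

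The pairs 9130213A22Rik/Hes7 and Gm10644/Asf1b did not vary between libraries whose covered share of sites ranged from 47.6% to 66.9%. Hes7, an oscillating Notch target, held 2 in each library and Asf1b, a histone chaperone of replication, held 1, the same as its partner. The covered share of sites in a member region, averaged over covered regions, went from 79.9% at 0 h to 90.9% at 1.5 h, and in other regions from 78.8% to 92.2%.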
